A study of Mus musculus with 6 samples.

Results

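The 10 genes described here encode factors of the GATA1 and TAL1 complex and proteins that work with or against it: the GATA factors Gata1 and Gata2, the GATA1 cofactor FOG1 (gene Zfpm1), the basic helix-loop-helix proteins Tal1, Lyl1 and Tcf3, the bridging proteins Lmo2 and Ldb1, and the DNA-binding factors Gfi1b and Runx1. They were chosen by name among the 48709 genes of the count table, and all 10 were among the 12722 genes with enough counts to be tested. RNA was sequenced from G1E-ER4 cells, a mouse erythroid progenitor line derived from embryonic stem cells, in 3 libraries per group. The CHD4-APR group received a Tat-linked peptide of the aggregation-prone region (APR) of the chromatin remodeler CHD4, and the CTRL group received an alanine stretch joined to Tat instead. Each peptide was added at 10 μM, 2 h ahead of tamoxifen, and the tamoxifen treatment lasted 28 h in both groups. The growth protocol gives 100 nM tamoxifen and the design text 100 μM. Cells of both groups carry a fusion of GATA-1 with the ligand-binding domain of the estradiol receptor, which tamoxifen moves into the nucleus. Endogenous Gata1 is disrupted in G1E cells, so the counts for Gata1 may come from the fusion transgene, and counts per gene do not separate transgene from endogenous RNA. The labels do not say whether the 3 libraries of a group came from separate cultures, so the p-values measure only the spread between these libraries.

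GATA1 is the transcription factor that drives red cell and megakaryocyte formation. On erythroid genes it sits with a complex in which a heterodimer of TAL1 and an E protein, such as the products of Tcf3, binds an E-box, LMO2 bridges that heterodimer to GATA1, and LDB1 dimerises to bring distant elements together. FOG1 binds GATA1 directly and recruits the nucleosome remodeling and deacetylase (NuRD) complex, of which CHD4 is the ATPase. In early progenitors GATA2 occupies many of the same sites, and its replacement by GATA1 during differentiation is known as the GATA switch.

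Per length of exon, Gata1 was by far the most abundant of the factors and Gata2 the least. In this scale, normalized CPM (counts-per-million, with library sizes scaled by edgeR's TMM method) were divided by the exonic length in kilobases. The order and overlaps below depend on that length. Ldb1 has 4606 exonic bases but 3133 in its longest transcript, and Runx1 has 12025 and 5861. The length of Gata1 is that of the endogenous gene, which need not be that of the transgene. Gata1 stood at 659.9 ± 37.7 in the CTRL libraries and 763 ± 14.5 in the CHD4-APR libraries (normalized CPM per kilobase, SD, n = 3). Zfpm1 followed with 149.9 ± 9.88 and Tal1 with 146 ± 4.73 in the CTRL libraries, levels that overlapped between libraries. Ldb1 (98.1 ± 9.70) and Lyl1 (90.1 ± 7.29) came next and also overlapped. Below them the CTRL levels of Tcf3 (52.6 ± 2.13), Gfi1b (45.5 ± 0.816), Lmo2 (24.7 ± 1.02), Runx1 (8.51 ± 0.201) and Gata2 (3.68 ± 0.315) formed a descending order in which no library of one gene overlapped those of the next. In the CHD4-APR libraries Tal1 stood at 151 ± 0.921 and Zfpm1 at 128 ± 6.20 per kilobase, so that Tal1 was above Zfpm1 in all 3 libraries. Among all tested genes, 0.639% had a CTRL level per kilobase at or above that of Gata1, and 56.5% at or above that of Gata2.

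**Figure D1:**
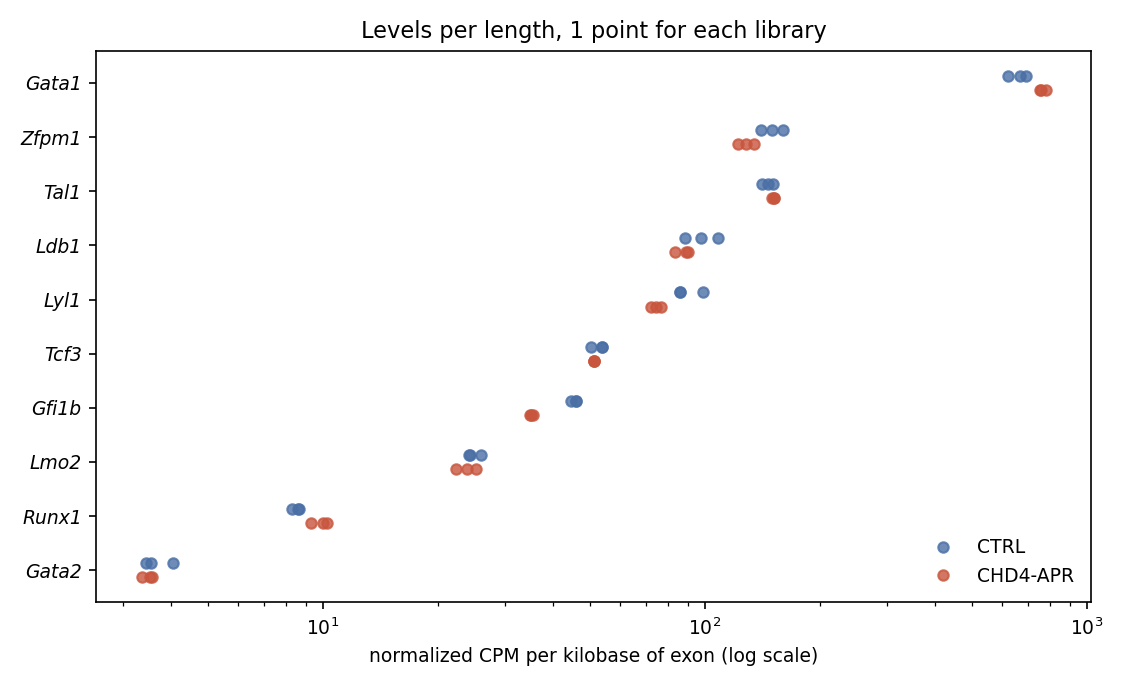
Level of each factor per kilobase of exon in the 6 libraries, on a log axis in normalized CPM per kilobase, with 1 point for each CTRL or CHD4-APR library. Gata1 lies between 619 and 779, and Gata2 between 3.35 and 4.04.

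Promoter windows of 3 members are shown because they differ in response: Gfi1b fell the most, Lyl1 fell, and Tal1 did not pass the test. Each is the 250 bases before a RefSeq start in GRCm38.p6, 5′ to 3′ on the strand of the gene. Capitals mark matches, on either strand, to a GATA motif, to an E-box or to both as a composite. The GATA motif is GATA with an A or a T before it and an A or a G after it. The E-box is CANNTG, and the composite is the end CTG of an E-box that stands 8 bases before GATA. The windows are chr2:28621983-28622232 (minus strand) for Gfi1b, chr8:84701207-84701456 (plus strand) for Lyl1 and chr4:115056176-115056425 (plus strand), the first of 2 listed starts, for Tal1.
Gfi1b: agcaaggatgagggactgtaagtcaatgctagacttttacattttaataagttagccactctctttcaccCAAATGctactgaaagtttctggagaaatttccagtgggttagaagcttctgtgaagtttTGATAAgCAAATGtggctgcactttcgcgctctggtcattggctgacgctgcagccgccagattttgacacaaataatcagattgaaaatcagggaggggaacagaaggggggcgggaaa
Lyl1: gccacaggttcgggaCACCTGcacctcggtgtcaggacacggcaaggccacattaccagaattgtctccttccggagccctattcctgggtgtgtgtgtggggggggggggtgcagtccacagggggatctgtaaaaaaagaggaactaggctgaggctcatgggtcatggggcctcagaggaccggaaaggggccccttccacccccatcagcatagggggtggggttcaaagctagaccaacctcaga
Tal1: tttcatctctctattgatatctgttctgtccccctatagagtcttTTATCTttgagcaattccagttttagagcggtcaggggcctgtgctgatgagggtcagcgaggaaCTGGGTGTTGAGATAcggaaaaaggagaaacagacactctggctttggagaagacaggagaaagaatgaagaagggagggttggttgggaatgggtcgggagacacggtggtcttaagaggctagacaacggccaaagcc
The Gfi1b window holds a GATA match from 120 to 115 bases before the start and E-box matches from 180 to 175 and from 113 to 108 bases before it. The Tal1 window holds a GATA match from 205 to 200 and a composite match from 140 to 126 bases before the start, whereas the window at the other listed Tal1 start holds no match, and the Lyl1 window an E-box match alone. RefSeq listed 14 windows for 9 of the members, all but Lmo2. GATA matches occurred in 3 of these 14 windows and in 26.5% of 32851 windows of all genes, E-box matches in 6 of 14 and 66.2% of all, and composite matches in 1 of 14 and 1.91% of all. A match of letters is a description and shows no binding.

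Between the peptides, 6 of the 10 factors changed with a false discovery rate (FDR) under 0.05 by edgeR's quasi-likelihood test: Gata1 and Runx1 were higher in CHD4-APR-treated cells, and Gfi1b, Lyl1, Zfpm1 and Ldb1 were lower. Of all 12722 genes tested, 38.3% passed, 20.4% as higher and 17.8% as lower, against which the 6 of 10 members are to be read. Of the genes that passed, 53.4% were higher, and 66.7% with total counts in place of TMM scaling. None of the 10 passed 1.5-fold (0 members, against 4.23% of all genes), and the log2 fold changes ran from -0.38 for Gfi1b to 0.21 for Gata1. For 5 members the groups did not overlap, against 49.9% of all genes. The median log2 fold change of the members was -0.070, and that of all genes -0.012. With the replicate number as a block the same 6 members passed, against 41% of all genes. In bulk RNA, fewer cells of a type and less RNA per cell cannot be told apart.

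**Figure D2:**
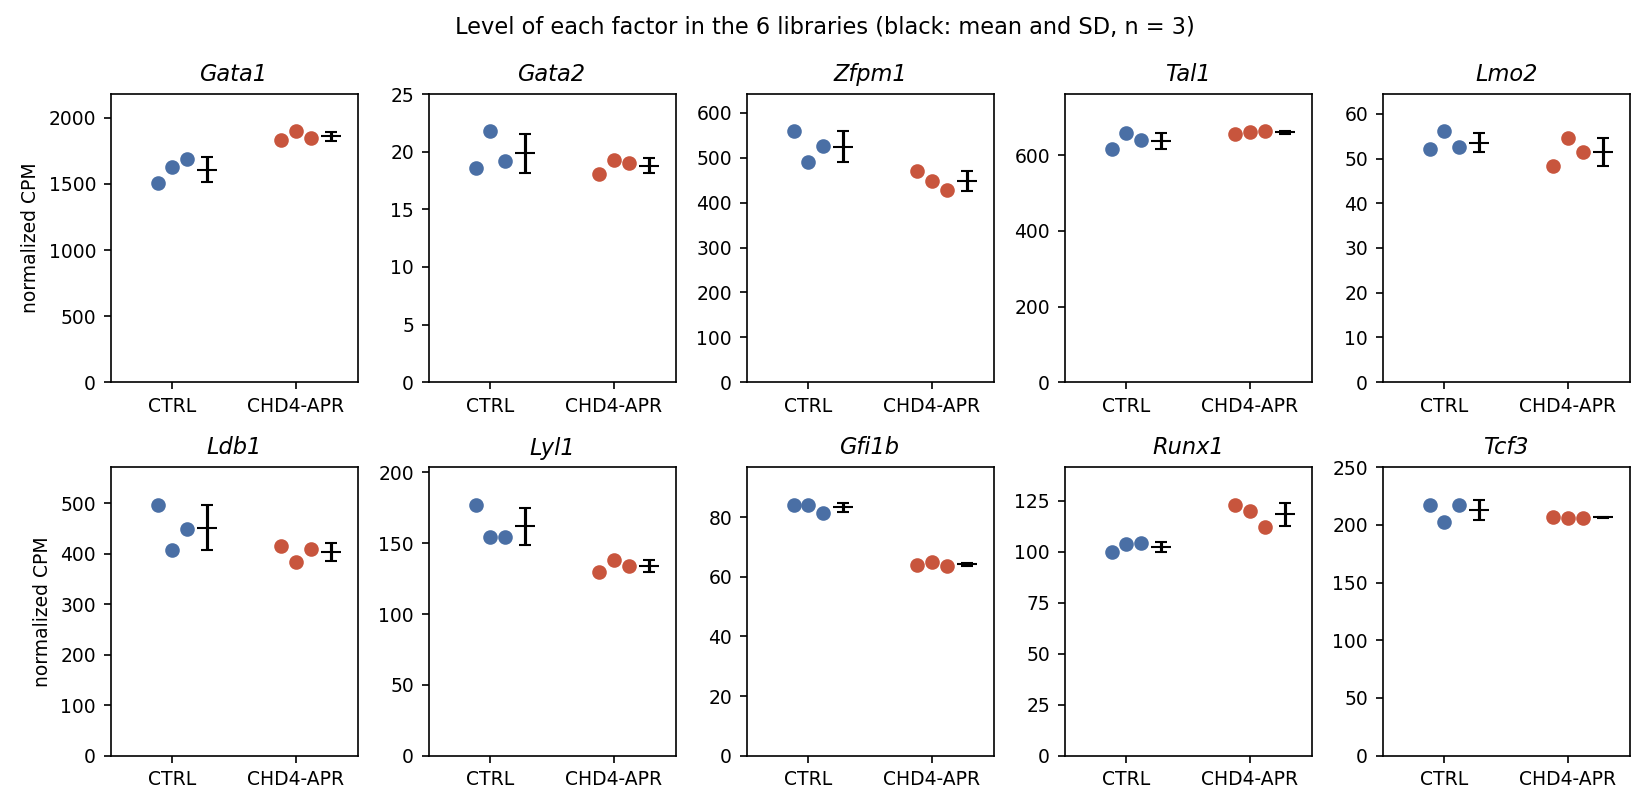
Normalized CPM of each factor in the 3 CTRL (blue) and 3 CHD4-APR (red) libraries, with the mean and SD of each group in black and axes that start at 0. Gata1 and Runx1 are higher in every CHD4-APR library, and Zfpm1, Lyl1 and Gfi1b are lower in every one.

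Across all genes the fold change followed the composition of the transcripts, with a Spearman correlation of -0.456 with GC content and 0.407 with exonic length over genes, which are not independent replicates. Each comparison was therefore also made with that trend removed from every library, and 27.6% of all genes then passed, 11.7% as higher and 15.9% as lower. With this correction 3 of the 10 members passed: Gata1 was higher, and Gfi1b and Lyl1 were lower. The median log2 fold change was then -0.023 for the members and -0.024 for all genes, so that the gap between the medians was gone. The median exonic length of the tested genes was 3688 bases and their median GC content 49.6%. Of the members, Runx1 has the longest exonic length (12025 bases) and the lowest GC content (46.4%), and Zfpm1 the highest GC content (66.8%).

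**Figure D3:**
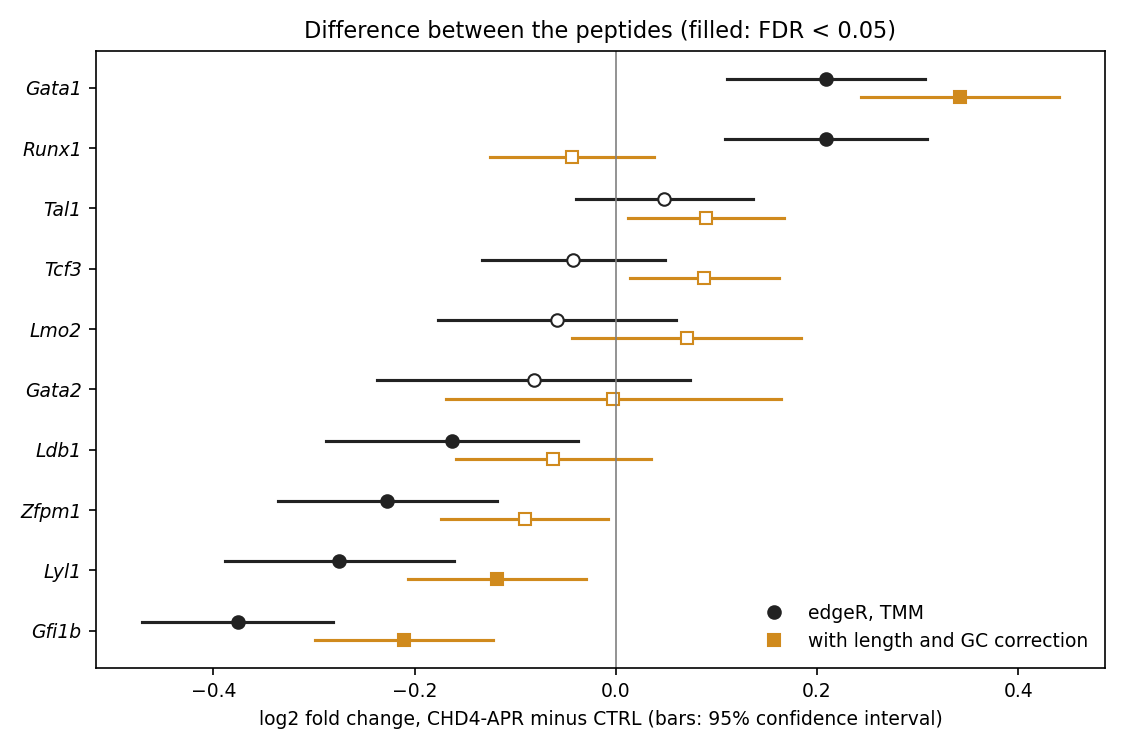
Log2 fold change of each factor, CHD4-APR minus CTRL, with 95% confidence intervals, from edgeR without (black circles) and with (orange squares) the correction for length and GC content. Filled symbols have an FDR under 0.05, which in the corrected values holds for Gata1 (0.34), Lyl1 (-0.12) and Gfi1b (-0.21).

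Gata1, on chromosome X from 7959260 to 7978071 in GRCm38 (gene identifier ENSMUSG00000031162), was higher with the CHD4-APR peptide. CTRL replicates 1 to 3 had 1509, 1627 and 1690.2 normalized CPM, and CHD4-APR replicates 1 to 3 had 1833, 1899.8 and 1846. Every CHD4-APR library was above every CTRL library, and only 38 of the tested genes had a mean log2 CPM at or above that of Gata1, itself included. Gata1 rose by 15.6%, a log2 fold change of 0.21 with a standard error of 0.047 (FDR 0.00214 by edgeR). In the 6 fits that leave out a library this value ran from 0.16 to 0.25 and always passed. After the correction for length and GC content it was 0.34 (FDR 6.92e-05 by edgeR), where the trend removed was -0.13. That trend was taken at the length and GC content of the endogenous gene, which need not be those of the transgene, so the corrected value holds only as far as they are alike. The study names no species for the receptor domain of the fusion. Mouse Esr1, which encodes an estradiol receptor, had 64.8 ± 2.82 (CTRL) and 66.6 ± 6.23 (CHD4-APR) normalized CPM (SD, n = 3). Its log2 fold change of 0.041 did not pass (FDR 0.642 by edgeR), and after the correction it was -0.25 and passed (FDR 0.00803 by edgeR). Whether the Esr1 reads come from the transgene was not tested.

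Gata2, on chromosome 6 from 88193891 to 88207032, did not pass the test. The CTRL libraries had 18.6, 21.8 and 19.2 normalized CPM, against 18.1, 19.3 and 19.0 with the CHD4-APR peptide, and the groups overlapped. Its log2 fold change was -0.082, with a 95% confidence interval from -0.24 to 0.074 (FDR 0.412 by edgeR). The raw counts behind these values, 788 to 1076 per library, were the lowest of the members. The ratio of Gata1 to Gata2 per kilobase of exon was 179.6, 165 and 195 with the CTRL peptide, against 225, 218 and 215 with the CHD4-APR peptide. All 3 CHD4-APR values were above the CTRL ones, with means of 180.0 ± 14.9 and 219 ± 4.88 (SD, n = 3). This ratio was not tested, and its size depends on the exon lengths assumed.

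Zfpm1, which encodes FOG1 and lies on chromosome 8 from 122282141 to 122337251, was lower with the CHD4-APR peptide. Zfpm1 read 559, 490.1 and 526 normalized CPM in CTRL cells, against 471, 447 and 427 in CHD4-APR-treated cells, with no overlap between the groups. Its level fell by 14.6%, a log2 fold change of -0.23 with a standard error of 0.052 (FDR 0.00246 by edgeR). It passed with each library left out, between -0.28 and -0.18. With the correction for length and GC content it was -0.091 and no longer passed (FDR 0.0984 by edgeR).

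Among the basic helix-loop-helix genes, Tal1 and Tcf3 did not pass and Lyl1 was lower. Tal1, on chromosome 4 from 115056426 to 115071755, read 617, 658 and 640.4 normalized CPM in CTRL cells, against 656, 662 and 664 in CHD4-APR-treated cells. Its groups overlapped, and the log2 fold change was 0.048, with a 95% confidence interval from -0.039 to 0.14 (FDR 0.387 by edgeR). Lyl1, a close relative of TAL1 that can bind the same partners, lies on chromosome 8 from 84701457 to 84704715. Its CTRL libraries had 177, 155 and 154 normalized CPM, against 129.8, 138 and 134 with the CHD4-APR peptide, so that all CHD4-APR values were below the CTRL ones. Lyl1 fell by 17.4%, a log2 fold change of -0.27 with a standard error of 0.054 (FDR 8.01e-04 by edgeR). It passed with each library left out, and after the correction it was -0.12 and still passed (FDR 0.0453 by edgeR). Tcf3, whose E proteins E12 and E47 pair with TAL1, lies on chromosome 10 from 80409514 to 80433647. CTRL cells had 218, 203 and 218 normalized CPM of Tcf3, against 207, 206 and 206 in CHD4-APR-treated cells. The CHD4-APR values fell inside the range of the CTRL values, with a log2 fold change of -0.042 and a 95% confidence interval from -0.13 to 0.049 (FDR 0.478 by edgeR). That sign turned with the correction, to 0.088 (FDR 0.0720 by edgeR).

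Of the bridging proteins, Lmo2 did not pass and Ldb1 was lower by a small margin. Lmo2, on chromosome 2 from 103957986 to 103981878, read 52.1, 56.1 and 52.5 normalized CPM in CTRL cells, against 48.4, 54.6 and 51.5 in CHD4-APR-treated cells. These ranges overlapped, and the log2 fold change was -0.059, with a 95% confidence interval from -0.18 to 0.060 (FDR 0.444 by edgeR). With the correction it was 0.071 and did not pass. Ldb1, on chromosome 19 from 46031570 to 46045214, read 497, 408 and 449.7 normalized CPM in CTRL cells, against 416, 384 and 410.4 in CHD4-APR-treated cells. The groups overlapped, since CTRL replicate 2 was below 2 of the CHD4-APR libraries. Ldb1 fell by 10.7%, a log2 fold change of -0.16 with a standard error of 0.059 (FDR 0.0389 by edgeR). It passed in 1 of the 6 fits with a library left out, that without CTRL replicate 2 (-0.23), and the value without CTRL replicate 1 was -0.089. Nor did it pass with total counts scaling (-0.12) or with the correction (-0.062, FDR 0.353 by edgeR).

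Gfi1b, a repressor that recruits the demethylase LSD1 with the CoREST proteins and is needed for red cell and platelet formation, fell more than any other member. On chromosome 2 from 28609450 to 28621982, it read 84.1, 84.2 and 81.6 normalized CPM in CTRL cells, against 64.1, 64.9 and 63.7 in CHD4-APR-treated cells. The gap between the groups was wide beside the spread within them, with coefficients of variation of 1.79% (CTRL) and 0.955% (CHD4-APR). Gfi1b fell by 22.9%, a log2 fold change of -0.38 with a standard error of 0.045 (FDR 1.15e-05 by edgeR). Of all tested genes, 18.4% had an absolute log2 fold change as large or larger, Gfi1b included. Leaving out a library kept the value between -0.39 and -0.36, and with the correction it was -0.21 and passed (FDR 0.00134 by edgeR).

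Runx1, a factor of blood stem cells and megakaryocytes that can oppose the erythroid program, lies on chromosome 16 from 92601466 to 92826149. Its CTRL libraries had 99.6, 104 and 104 normalized CPM, against 123, 120.0 and 112 with the CHD4-APR peptide, with every CHD4-APR library higher. Runx1 rose by 15.6%, a log2 fold change of 0.21 with a standard error of 0.047 (FDR 0.00238 by edgeR), and passed with each library left out. With the correction for length and GC content its direction turned, to -0.044, and it did not pass (FDR 0.449 by edgeR). The trend fitted for a gene of its length and composition was 0.25, larger than the observed difference.

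Parts of 3 members share exon sequence with another gene in GENCODE M21: Ldb1 shares 177 bases (3.84% of its exonic length) with Pprc1, Runx1 106 bases (0.88%) with Gm26626, and Lyl1 4 bases (0.22%) with Nfix, each on the opposite strand. The library kit does not mark strand, so reads in these stretches cannot be assigned to 1 gene by direction.

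A description of likeness over the 6 libraries, in which the group difference, scaling and composition are shared, paired each member with the gene of at least 5 mean log2 CPM whose log2 CPM correlated best with it, out of 5151 candidates outside the members. Gata1 was most like Eri1 (Pearson r = 0.995), Gfi1b most like Eif1ad (0.997), Lyl1 most like Eci1 (0.999), Zfpm1 most like P2rx4 (0.997) and Runx1 most like Smc5 (0.997). How common such values were differed between members: 11.9% of the candidates had r above 0.95 with Gata1 and 6.25% with Gfi1b, against 1.40% with Tal1, 0.0971% with Lmo2, 0.0777% with Tcf3 and 0.0582% with Gata2. For members that did not pass, the best match was Arhgap19 for Tal1 (0.993), Mthfd1 for Gata2 (0.975), Gpn3 for Lmo2 (0.978) and Pex6 for Tcf3 (0.978), and for Ldb1 it was Plscr3 (0.989).

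Other genes of the pathway moved in both directions. Of 30 listed partners, relatives and antagonists of the complex, 19 had enough counts to be tested, and 5 were higher and 5 lower with an FDR under 0.05, with a median log2 fold change of 0.088. Of all genes 20.4% passed as higher and 17.8% as lower. With total counts scaling 7 genes of the list were higher and 3 lower, where 2959 of all 12722 genes were higher and 1474 lower. With the correction for length and GC content the median of the list was 0.0013. The E protein genes Tcf4 and Tcf12, which like Tcf3 encode dimer partners of TAL1, rose: Tcf12 from 65.6 ± 5.95 to 96.6 ± 2.66 and Tcf4 from 15.0 ± 0.848 to 22.3 ± 1.21 normalized CPM (SD, n = 3). Their log2 fold changes were 0.56 (FDR 3.61e-06 by edgeR) and 0.57 (FDR 1.77e-05 by edgeR). With the correction for length and GC content these were 0.23, which passed, and 0.17, which did not (FDR 0.0509 by edgeR). Cbfb, the binding partner of RUNX proteins, rose from 21.9 ± 0.903 to 33.0 ± 3.86 normalized CPM, or by 0.59 on the log2 scale (FDR 2.45e-05 by edgeR), and passed with the correction at 0.45. It was the 1 gene of the list past 1.5-fold. The largest decreases of the list were those of Ssbp4, an LDB1-binding protein, Spi1, which encodes the GATA1 antagonist PU.1, and Hmg20b, a subunit of LSD1-CoREST complexes, with log2 fold changes of -0.25, -0.24 and -0.22. None of these 3 passed with the correction, where 5 of the 19 genes did, 4 as higher and 1 as lower, against 27.6% of all genes. Of these 5 genes, 3 were among the 10 and in the same direction. Unlike Hmg20b, the CoREST genes Rcor1 (0.31) and Rcor3 (0.52) passed as higher, and Kdm1a, which encodes LSD1, did not pass (0.11). With the correction Rcor1 (0.23) and Kdm1a (0.11) passed as higher, and Rcor3 (0.18) did not pass.

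FOG1 recruits NuRD, the complex that holds CHD4, and of 13 NuRD subunit genes tested 2 were higher and 2 lower (30.8%, against 38.3% of all genes), with a median log2 fold change of 0.054 that turned to -0.024 with the correction. Gatad2b (0.21) and Rbbp4 (0.19) rose, and Mbd3 (-0.27) and Gatad2a (-0.16) fell, as log2 fold changes. Without CTRL replicate 2, 7 of the 13 passed, against 38.1% of all genes. With the correction Gatad2b and Rbbp4 were at -0.039 each and Mbd3 at -0.11, without passing, while Gatad2a passed at -0.13. The other subunit genes that passed then were Mta1 and Mta2, which were higher, and Chd3, which was lower. Chd4 itself, with 231 ± 5.35 (CTRL) and 239.5 ± 2.56 (CHD4-APR) normalized CPM, did not pass (log2 fold change 0.054, FDR 0.322 by edgeR).

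Of 22 listed genes known to be activated by GATA1, 21 were tested and Ahsp was not analysed here. With an FDR under 0.05, 9 were lower and 2 higher with the CHD4-APR peptide, against 17.8% and 20.4% of all genes, with a median log2 fold change of -0.11. Total counts scaling gave 7 lower and 4 higher, where 1474 of all 12722 genes were lower and 2959 higher. With the correction the median was -0.034, against -0.024 for all genes. The lower genes were led by the adult globin genes Hbb-bs (-0.33), Hbb-bt (-0.32) and Hba-a1 (-0.25), copies of which share much sequence, and 4 of the 9 are globin genes. Epb42, a protein of the red cell membrane skeleton, rose from 22.8 ± 1.60 to 28.9 ± 0.344 normalized CPM (log2 fold change 0.34), and Cdkn1b, a cell cycle inhibitor, rose by 0.23 on the log2 scale. With the correction Hbb-bs (-0.18), Hbb-bt (-0.18) and Epb42 (0.24) passed, and Hba-a1 (-0.053) and Cdkn1b (0.071) did not. In all, 9 of the 21 genes passed with the correction, 3 as higher and 6 as lower, against 11.7% and 15.9% of all genes. Of these 9 genes, 6 were among the 11 that passed without it and in the same direction.

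Of 13 listed genes repressed by GATA1, 10 were tested, 3 were higher and 1 lower (40.0%, against 38.3% of all genes), with a median log2 fold change of 0.27. With the correction the median was 0.13. The uncorrected median lies between the values of Hhex (0.26) and Kit (0.28), neither of which passed. Several of these genes had low levels. CTRL means were 1.30 normalized CPM for Myb, 3.01 for Hhex, 3.25 for Ikzf2 and 3.76 for Myc, against 22.0 for Cdk6 and 187 for Spi1. Ikzf2, a lymphoid zinc-finger factor, rose by 0.54 on the log2 scale, Cdk6, a kinase of the G1 phase, by 0.44 and Myc by 0.33, and Spi1 was the lower gene. Of these 4, Myc alone passed with the correction (0.43, FDR 0.0154 by edgeR), but without it Myc passed in only 2 of the 6 fits with a library left out (log2 fold change 0.24 to 0.42), those without CTRL replicate 2 or CHD4-APR replicate 1. Kit, the stem cell factor receptor, had a mean of 2.72 ± 0.283 (CTRL) and 3.29 ± 0.344 (CHD4-APR) normalized CPM and did not pass (FDR 0.135 by edgeR). Klf1, Lmo4 and Spi1 each stand on 2 of these lists.

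**Figure D4:**
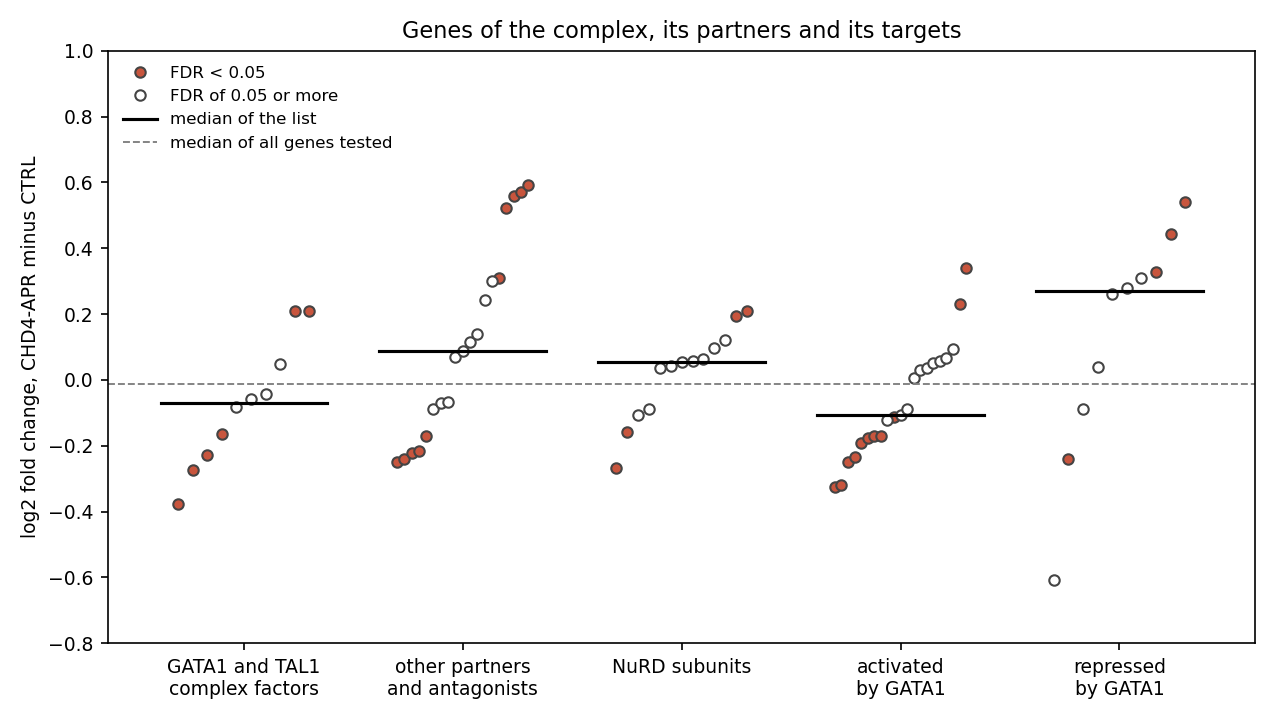
Log2 fold change, CHD4-APR minus CTRL, of each tested gene among the 10 factors and on 4 lists of the pathway, with filled points for an FDR under 0.05 by edgeR, a black bar at the median of the list and a dashed line at the median of all genes. The medians run from -0.11 for genes activated by GATA1 to 0.27 for genes it represses, and with the correction for length and GC content, which is not drawn, these were -0.034 and 0.13. The 0.27 lies between Hhex and Kit, which did not pass and had CTRL means of 3.01 and 2.72 normalized CPM.

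The libraries held 41687482 to 49784177 counts. All 11 erythroid markers with counts passed the filter, and their summed level, as CPM of all counts, was 69039 to 72614 with the CTRL peptide and 60066 to 63406 with the CHD4-APR peptide. Of these markers 5 were lower and 2 higher with an FDR under 0.05, against 17.8% and 20.4% of all genes, and the 2 that rose were Rhag, a Rh-associated membrane protein, and Tfrc, the transferrin receptor. Their log2 fold changes were 0.63 (FDR 1.12e-06 by edgeR) and 0.26 (FDR 0.00390 by edgeR), and with the correction Rhag passed at 0.52 and Tfrc, at -0.021, did not. Of the 5 lower markers, Hbb-bs and Hbb-bt (-0.18 each) passed with the correction. Klf1 (0.0013), Hba-a1 (-0.053) and Hba-a2 (-0.034) did not, while Slc4a1 then passed as higher (0.11). Hemoglobin genes, which make up most of that sum, took 6.05% to 6.45% of the CTRL counts and 5.11% to 5.44% of the CHD4-APR counts. With hemoglobin genes removed before scaling, 6 members passed, 2 higher and 4 lower, against 38.2% of all genes. Of 11 megakaryocyte markers, Ppbp, Gp1bb and Vwf were among those at 0 in every library, and the sum of the list was 55.2 to 58.1 (CTRL) and 52.7 to 56.3 (CHD4-APR) CPM, mostly from Itga2b, which early progenitors also express. Of the 5 that could be tested 1 passed (20%, against 38.3% of all genes), Gp9, a subunit of the platelet receptor for von Willebrand factor, which was lower (log2 fold change -0.31, FDR 0.00986 by edgeR) and did not pass with the correction (-0.11, FDR 0.361 by edgeR). The sums were 4.52 to 5.16 and 3.81 to 5.05 CPM for 13 mast and myeloid cell markers, with Mcpt8, Mpo and Cd14 at 0, and 0.321 to 0.663 and 0.358 to 0.616 for 11 lymphoid markers, with Cd79b, Cd3e, Cd8a and Rag1 at 0. Of 7 embryonic stem cell markers 5 were at 0 (Pou5f1, Nanog, Sox2, Zfp42 and Tdgf1), with sums up to 0.181 (CTRL) and 0.0427 (CHD4-APR).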

How the data were processed

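RNA-Seq counts of 6 libraries of tamoxifen-treated G1E-ER4 cells were used, 3 per peptide, grouped by the sample titles. By the submitters' processing notes and the methods, Cutadapt removed adaptors, STAR 2.7.10a mapped the reads to GRCm38, and featureCounts assigned them to genes. The values the authors deposited are raw counts per Ensembl gene. The strand setting of the counting and its treatment of reads matching several genes are not given in the sources used here, nor is a sequencing batch. The table's other 2 columns match no sample of the series and were not used.

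Genes were named with GENCODE mouse release M21 (GRCm38), which held 48349 of the 48709 identifiers. In R 4.3.3, edgeR 4.0.16 was run with filterByExpr, TMM scaling and its quasi-likelihood test (no replicate block), with Benjamini-Hochberg adjustment over 12722 genes and a threshold of 0.05. The study used DESeq2. Standard errors come from the F statistic. Alternatives were DESeq2 1.42.0, limma-voom 3.58.1, other scalings and filters, removal of hemoglobin genes, a replicate block, an FDR under 0.01, leaving out each library, and a correction in which each library's log2 CPM (prior count 2) were smoothed on exonic length and GC content (mgcv 1.9.3) and the trend passed to edgeR as offsets. Length and GC content were known for 12677 of the tested genes.

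Counts of this comparison were simulated with 200 of 12722 genes changed and no trend with length or GC content. There edgeR recovered 32 of the 50 genes changed least, by under 1.5-fold, with 6 false calls in all. It recovered 44, 47 and 50 of the 50 genes changed by 1.5, 2 and 3-fold. Since the data hold such a trend, these numbers do not give the rate of false calls in them. Replicates of a group all differed by more than sampling noise.

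The members, gene lists and tests were chosen with earlier results of these data known. The genes named are the members, on each of 4 lists up to 3 genes per direction with the largest fold change among those with an FDR under 0.05 and a mean of at least 1 log2 CPM, the markers, Esr1 and the best match of each member. Kit, Chd4, Mta1, Mta2, Chd3, Gp9, Rhag, Tfrc, Hhex, Myb, Rcor1, Rcor3, Kdm1a, Klf1, Hba-a2 and Slc4a1 were added after their values were seen. Promoter windows are from RefSeq (GRCm38.p6).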

Additional observations from a re-analysis of the deposited data

How the results depend on the processing

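Gata1, Gfi1b and Lyl1 passed in the same direction in all 17 alternatives, with log2 fold changes of 0.16 to 0.34, -0.39 to -0.21 and -0.31 to -0.12. With the length and GC correction the called members were 3, the called partners 5 and the called GATA1-repressed genes 1, and with the replicate block as well they were 3, 6 and 1, where 27.6% and 31.4% of all genes passed. Direction turned under this correction for Runx1 (-0.044), Lmo2 (0.071) and Tcf3 (0.088), and with the replicate block as well for Runx1 (-0.044), Lmo2 (0.072), Tcf3 (0.088) and Gata2 (0.0036). It also turned for Tcf3 with total counts scaling (0.0031). Zfpm1 lost its call under the correction with or without the block, and Ldb1 in 8 of 17 alternatives. Without hemoglobin genes 7 GATA1-activated genes were called, since 4 of the list were removed. With each library left out 5 to 6 members and 4 to 7 NuRD subunit genes were called, the latter 7 without CTRL replicate 2, while 28.6% to 38.1% of all genes passed in these fits. The Gata1 to Gata2 ratio was 153 (CTRL) and 186 (CHD4-APR) with the longest transcript as length. More genes were higher than lower, except with upper quartile scaling (2419 and 2601) and with the correction (1485 and 2024, or 1672 and 2325 with the block). The cause of these changes was not tested. The share of higher calls was 53.4%, and 66.7% with total counts scaling.

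Whether the replicate numbers pair the libraries was not settled. Deviations of same-numbered libraries correlated at 0.070 for number 1, 0.055 for number 2 and -0.035 for number 3. Libraries numbered 1 and 2 correlated best with their own number, and those numbered 3 did not. The replicate block alone left 6 members called, of 5214 calls over all genes, against 4871 calls without it. Every member had at least 788 counts in each library.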
